A study of Mus musculus with 24 samples.

Results

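Heat shock (HS) was compared between wild-type and PPARα-null mice that had all been fed WY (Wyeth in the sample titles), an agonist of the nuclear receptor PPARα. The mice were the 12 WY-fed animals of the 24 in the series, 3 in each of 4 groups, which were wild-type WY, wild-type WY+HS, PPARα-null WY and PPARα-null WY+HS. The other 12 mice, on control diet, enter only where the diets are set against each other. All mice were males of 9 to 12 weeks on a mixed SV129/C57BL/6 background, and PPARα-null mice lack the receptor in every cell, so an effect on liver cells cannot be told apart from an effect on the rest of the animal. WY was given at 500 ppm in the diet for 1 week, HS was 40 min at 42°C, control mice stayed at room temperature, and livers were taken 4 h after HS. Whole liver RNA of each mouse was hybridised to 1 Affymetrix U74Av2 array. The question was which genes responded to HS differently in the strains. For each of 12422 probe sets, the difference in heat response is the log2 change with HS in wild-type mice minus that in PPARα-null mice, so a positive value is a higher response in wild-type mice. All of these probe sets were tested, with no choice by their values, and the genes named below were picked from the results.

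HS unfolds proteins, and heat shock factor 1 (HSF1) then binds heat shock elements, inverted repeats of a short GAA unit, in the promoters of chaperone genes. The Hsp70 and Hsp110 proteins, their Dnaj partners and their Bag exchange factors hold and refold proteins in the cytosol, Hsp90 and its co-chaperones mature signalling proteins, and Hspd1 with Hspe1 form the folding chamber of mitochondria. PPARα is a lipid sensor of the liver that, when bound by WY, turns on genes of fatty acid oxidation such as the Cyp4a genes.

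The heat shock element core was searched on both strands as GAA and TTC units of 3 bases, 2 bases apart and in either order. RefSeq promoter windows (build GRCm38.p6, 250 bases before to 50 after the transcription start) were available for 32851 starts, of which 15.1% held the core. It is shown for the inducible Hsp70 genes, highest in heated wild-type mice, and for some other chaperone genes. In these others the brightest probe set was higher in every heated than in every unheated WY-fed mouse of each strain. Capitals mark the core, and each sequence is read along the strand of its gene.
Hspa1a, chr17:34972239-34972274, minus strand: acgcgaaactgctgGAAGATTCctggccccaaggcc
Hspa1b, chr17:34959321-34959356, minus strand: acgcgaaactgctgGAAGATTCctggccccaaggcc
Hspe1 and, on the other strand, Hspd1, chr1:55088045-55088090, plus strand: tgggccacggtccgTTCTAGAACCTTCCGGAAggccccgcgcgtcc
Dnaja1, chr4:40722330-40722365, plus strand: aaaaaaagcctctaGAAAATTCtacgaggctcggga
Fkbp4, chr6:128438786-128438821, minus strand: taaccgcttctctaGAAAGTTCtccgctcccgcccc
The Hspa1a and Hspa1b stretches were identical, and both cores began 104 bases before the start. Hsph1 met the same rule and also held a core before the start, not printed here. The core was not in the windows of Dnajb1, Atf3, Stip1, Cacybp or Mdfic, and in that of Bag3 it lay only after the start. Windows of Dnaja1 and Hspd1 at their other starts did not hold it either. Among genes with a promoter, it was held by 9 of the 27 that rose with HS in WY-fed wild-type mice (33.3%), 2 of the 15 that fell (13.3%), and 1 of 6 and 0 of 5 whose heat response was higher or lower in wild-type mice. A direct repeat of AGGTCA 1 base apart, the element PPARα binds, was in 0 of these windows and in 0.0396% of all of them.

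In the WY-fed mice the labels were checked first. Ppara intensity was 274 to 329 in the 6 wild-type mice and 103 to 205 in the 6 PPARα-null mice. The sources used here do not say whether this probe set lies in the deleted part of the gene. Cyp4a14, a fatty acid hydroxylase gene and PPARα target, was 4440 to 5396 in wild-type and 30.0 to 329 in PPARα-null mice. Hsph1, the Hsp110 gene, was 179 to 334 in the 6 unheated mice and 1231 to 2169 in the 6 heated mice, with no overlap. All 7 hepatocyte markers were above the floor, the lowest intensity that was kept (15.7), and their summed intensity was 33610 to 37500. Kupffer cell and macrophage markers summed to 532 to 857 in wild-type and 884 to 1760 in PPARα-null mice with 9 of 11 above the floor, and Adgre1 was at the floor on all 12 arrays. In whole liver, fewer cells of a type and less RNA per cell cannot be told apart. None of the 12 marker lists held a member whose heat response passed the test between strains. Over all 5972 genes above the floor in 3 or more WY-fed mice, 5 were called higher (0.0837%) and 3 lower (0.0502%). Calls in lists this short would be rare in any case, so their absence says little about cell types. Before normalization, median intensity was 26.9 to 40.5 in wild-type WY and 15.2 to 24.7 in wild-type WY+HS arrays, and 21.0 to 32.4 and 16.7 to 26.9 in the PPARα-null arrays. The part of this difference in the results was not tested beyond the scaling alternatives given at the end.

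Few genes passed the test. The heat response differed between strains for 13 probe sets of 12 genes, 0.105% of those tested, at a Benjamini-Hochberg adjusted p under 0.05 in limma, 7 with a higher and 6 with a lower response in wild-type mice. At an unadjusted p under 0.05 there were 606 (4.88%). Within strains, HS changed 53 probe sets in wild-type mice (0.427%; 34 rose, 19 fell) and 3 in PPARα-null mice (0.0242%; 1 rose, 2 fell). The count in wild-type mice does not by itself show a stronger response, since the test between strains is the interaction. Of the 53, the median log2 change of the 34 that rose was 1.34 in wild-type and 0.21 in PPARα-null mice, which were other animals, and 23 of the 34 had the same sign in both. Since wild-type values chose these 34, that gap is a description. Across all 12422 probe sets the correlation of the 2 heat responses was 0.167 (Spearman 0.124), over probe sets that share arrays and are not independent.

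**Figure D1:**
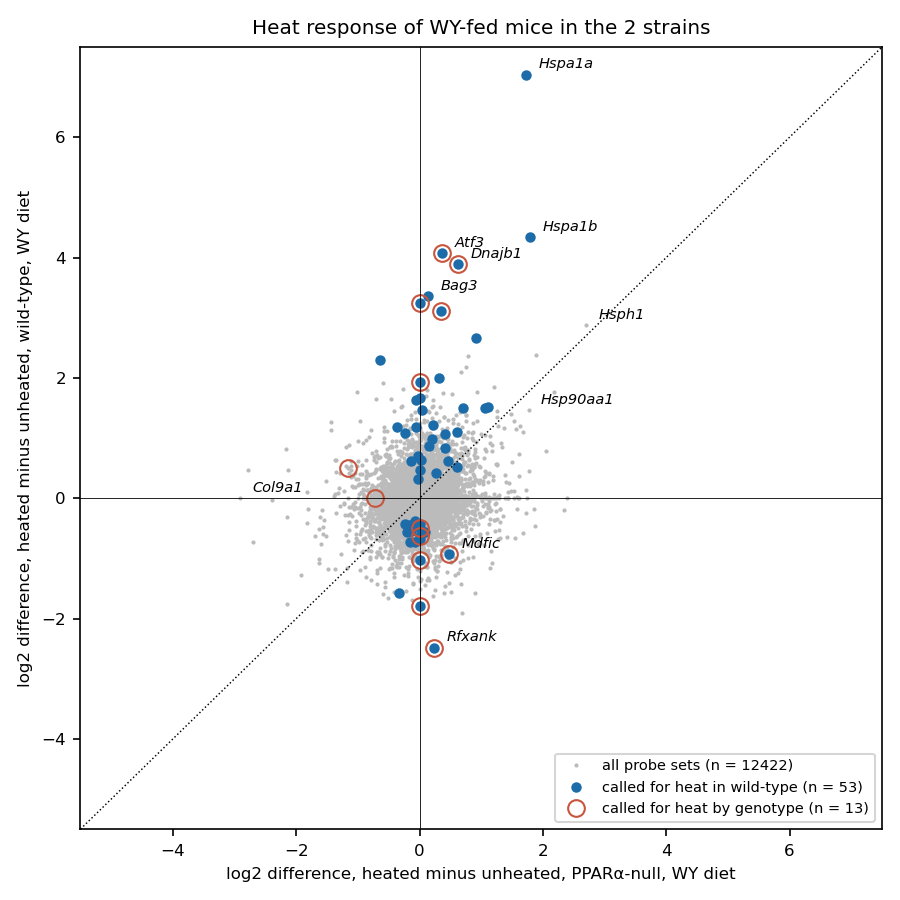
Log2 change with HS in WY-fed PPARα-null mice (x axis) against WY-fed wild-type mice (y axis) for 12422 probe sets, each from group means of 3 mice. Filled points are the 53 called for HS in wild-type mice, rings the 13 whose response differed between strains, and the dotted line marks equal response. Hsph1 and Hsp90aa1 sit near that line, and Hspa1a, Atf3, Dnajb1 and Bag3 far above it.

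The 5 genes with the largest rises in WY-fed wild-type mice were Hspa1a, Hspa1b, Atf3, Dnajb1 and Bag3. None of them passed the test for HS in PPARα-null mice, where at an unadjusted p under 0.05 limma gave 657 probe sets in all. Hspa1a and Hspa1b were among the 657, with log2 changes of 1.73 (fitted, unheated mice at the floor) and 1.79. The Atf3, Dnajb1 and Bag3 probe sets were not. Atf3, a transcription factor gene switched on by many cell stresses, was 41.6, 41.1 and 35.7 in wild-type WY mice and 650.3, 925 and 483 after WY+HS. In PPARα-null mice it was 40.1, 37.4 and 37.8 without HS and 36.9, 99.9 and 32.7 with it. The wild-type groups were far apart, and the PPARα-null groups overlapped, with 1 heated mouse (number 23) above the rest. The heat response was 3.71 ± 0.51 higher in wild-type mice on the log2 scale (SE, limma adjusted p = 0.00281). A second Atf3 probe set was above the floor in only the 3 wild-type WY+HS mice of all 24. It was 147, 248 and 91.6 there, on average 9.49-fold over the floor (mean of log2 values). Its fitted log2 difference was 3.25 (limma adjusted p = 2.68e-05), which counts the floor as a level, as do all fitted values below for groups at the floor, so that they are neither exact sizes nor bounds. Another was at the floor on every array. Both Atf3 calls held when any 1 of the 12 mice was left out.

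Dnajb1 encodes the Hsp40 partner of inducible Hsp70. It was 46.7, 45.5 and 62.2 in wild-type WY mice and 764, 1266 and 451 after WY+HS. In PPARα-null mice it was 43.5, 27.6 and 42.1 without HS and 40.4, 116 and 39.0 with it. All heated wild-type mice were above every other WY-fed mouse, and the difference in heat response was 3.28 ± 0.56 (SE, limma adjusted p = 0.0300). Leaving out 1 mouse gave 2.91 to 3.79, and the call held in 5 of 12 cases. The call was lost without any of wild-type WY mice 7 or 8, wild-type WY+HS mouse 11, PPARα-null WY mice 19 or 21, and PPARα-null WY+HS mice 22 or 24.

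Bag3 encodes a nucleotide exchange factor of Hsp70 that also guides damaged proteins to autophagy. Its brightest probe set was 75.5, 44.4 and 95.1 in wild-type WY mice and 875, 949 and 415 after WY+HS. In PPARα-null mice it was 115, 100.4 and 113 without HS and 102, 255 and 65.8 with it. That difference, 3.23 ± 0.65, missed the threshold (limma adjusted p = 0.0889), while the second probe set passed it at 2.75 ± 0.50 (limma adjusted p = 0.0411). The call on the second probe set held in 3 of the 12 cases with 1 mouse left out.

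Hspa1a and Hspa1b encode inducible Hsp70, and since the genes are nearly identical, probes for one may also read the other. Hspa1a was at the floor in all 6 unheated WY-fed mice. It was 1899, 3076 and 1531 in wild-type WY+HS mice, on average 132-fold over the floor (mean of log2 values). In PPARα-null WY+HS mice it was 32.2, 283 and 15.7. The groups of heated mice did not overlap. With the floor counted as the level of the unheated mice, the fitted difference in heat response was 5.31 and missed the threshold (limma adjusted p = 0.0737). Leaving out 1 mouse gave fitted values of 4.44 to 6.53, and the difference passed in 1 of 12 cases. That case was without PPARα-null WY+HS mouse 23, which held the 283 (6.53, limma adjusted p = 0.000145). Hspa1b was 137, 129 and 167 in wild-type WY mice and 2764, 3912 and 2271 after WY+HS, a rise of 4.34 ± 0.83 (limma adjusted p = 0.0268). In PPARα-null mice it was 46.7, 32.7 and 30.7 without HS and 91.0, 693 and 30.9 with it. Its difference in heat response was 2.55 ± 1.18 and did not pass (limma adjusted p = 0.989), with 1.54 without PPARα-null WY+HS mouse 24 and 3.79 without mouse 23, neither of which passed. In mouse 23 all 5 genes, Atf3, Dnajb1, Bag3, Hspa1a and Hspa1b, were the highest of the heated PPARα-null mice.

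**Figure D2:**
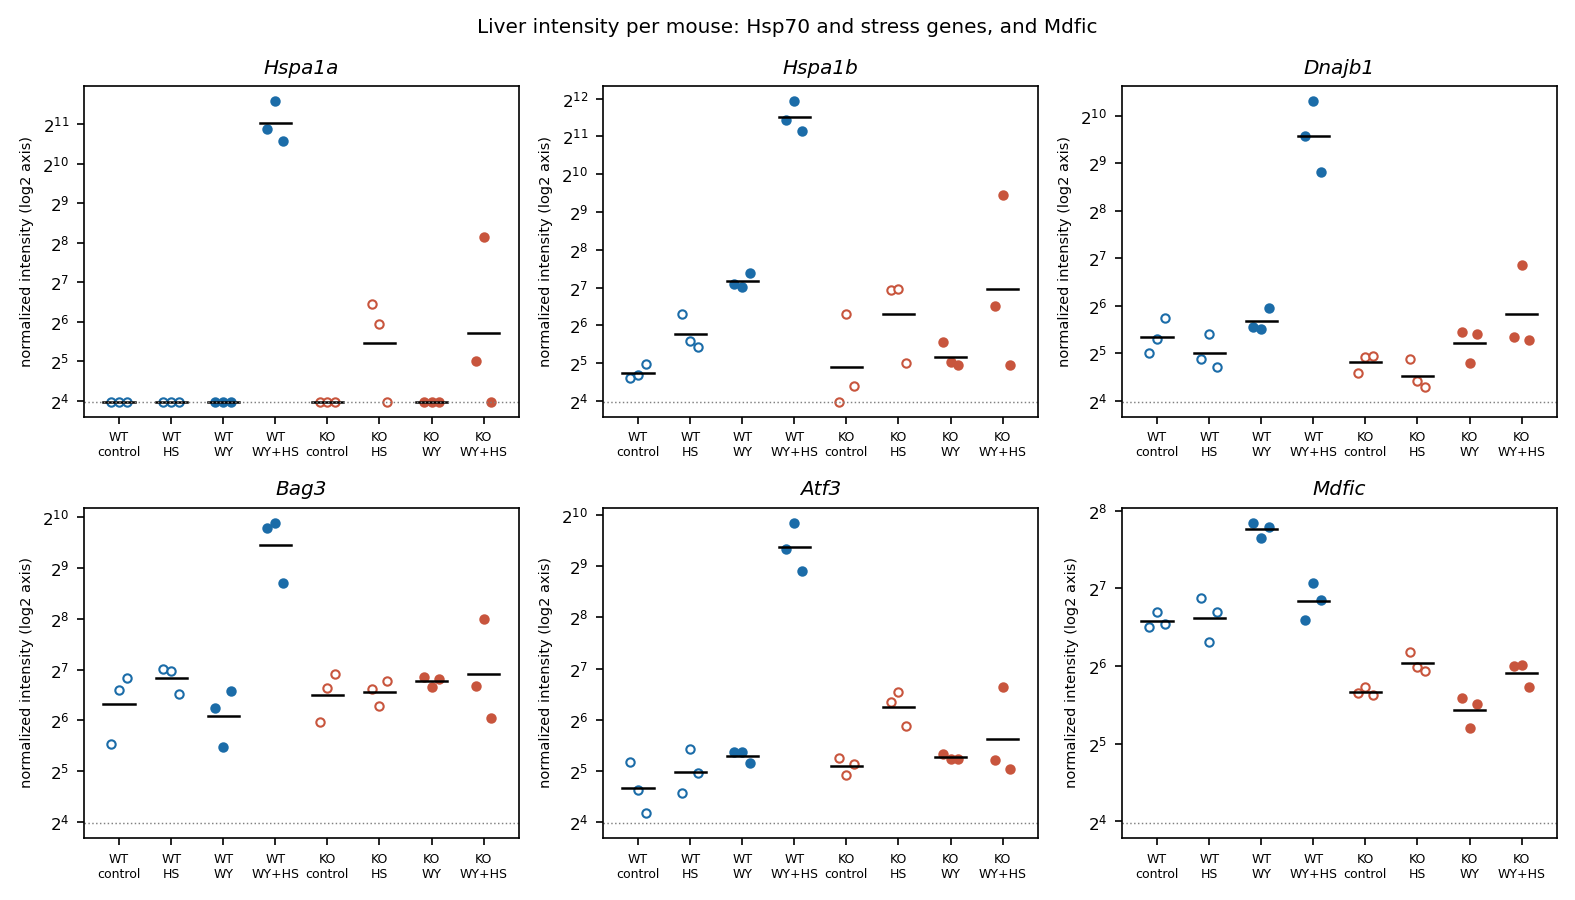
Normalized intensity on a log2 axis per mouse in 8 groups of 3 (wild-type blue, PPARα-null red, WY diet filled, control diet open), with the mean of log2 values as a bar and the floor dotted. The 3 wild-type WY+HS mice are the highest in the first 5 panels, and the sixth shows Mdfic, highest in wild-type WY mice.

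For some other chaperone genes, given next, the heated mice lay above the unheated mice in both strains. Few of these changes passed the test within a strain, and none passed between strains. Not all chaperone genes did so, and in Hspa4l the PPARα-null groups overlapped. Chordc1, of the Hsp90 list, changed by 0.39 in wild-type and -0.54 in PPARα-null mice, where every heated mouse was below every unheated one. Its difference of 0.93 did not pass (limma adjusted p = 0.420). Hsph1 was 302, 239 and 289 in wild-type WY mice and 2011, 2169 and 1883 after WY+HS, and 205, 334 and 179 against 1231, 2056 and 1339 in PPARα-null mice. No heated mouse overlapped an unheated one in either strain, but the changes of 2.88 and 2.71 did not pass (limma adjusted p = 0.0657 in wild-type and 0.252 in PPARα-null mice). The difference in heat response was 0.17 with a 95% interval of -1.74 to 2.08, which leaves room for a large difference either way. The spread behind this wide interval is pooled over all 8 groups, and 1 heated mouse in each strain on control diet had a low Hsph1 value (244 and 342). Hsp90aa1, the inducible Hsp90 gene, was 1296, 1050 and 1296 in wild-type WY mice and 3258, 3594 and 3167 after WY+HS. In PPARα-null mice it was 729.6, 1100 and 486 without HS and 2228, 2970 and 2325 with it. Neither change passed (limma adjusted p = 0.103 in wild-type and 0.107 in PPARα-null mice), and the difference was -0.30 (95% interval -1.37 to 0.77).

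Of the chaperone genes described here, Hspd1, which with Hspe1 makes the mitochondrial pair, had the narrowest interval. Hspd1 was 2639, 2558 and 2547 in wild-type WY mice and 3727, 3755 and 3649 after WY+HS, and 1676, 2096 and 1772 against 2587, 3126 and 2751 in PPARα-null mice. Its heat response was 0.52 ± 0.10 in wild-type (limma adjusted p = 0.0316) and 0.61 ± 0.10 in PPARα-null mice (limma adjusted p = 0.0515), and the difference of -0.09 had a 95% interval of -0.40 to 0.22. A dimmer Hspd1 probe set, at 40.3 to 127 in WY-fed mice, went the other way in PPARα-null mice (difference 1.23 ± 0.33, limma adjusted p = 0.420). Hspe1, whose start lies beside that of Hspd1 on the other strand with the 3 overlapping cores printed above between them, had heat responses of 0.83 ± 0.18 and 0.90 ± 0.18, neither of which passed (limma adjusted p = 0.0577 and 0.107), and a difference of -0.07 (95% interval -0.61 to 0.46). Stip1, the adaptor between Hsp70 and Hsp90, rose by 1.51 in wild-type mice (limma adjusted p = 0.00384) and was 1.06 higher in PPARα-null mice (limma adjusted p = 0.165), with a difference of 0.45 (95% interval -0.24 to 1.14). Fkbp4, an Hsp90 co-chaperone of steroid receptors, rose by 0.62 in wild-type mice (limma adjusted p = 0.0422) and was 0.46 higher in PPARα-null mice (limma adjusted p = 0.399), with a difference of 0.16 (95% interval -0.22 to 0.54). Dnaja1, another Hsp40 gene, was 1.28 and 0.93 higher after HS in the strains and passed in neither (limma adjusted p = 0.106 and 0.617), with a difference of 0.35 (95% interval -0.59 to 1.30).

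**Figure D3:**
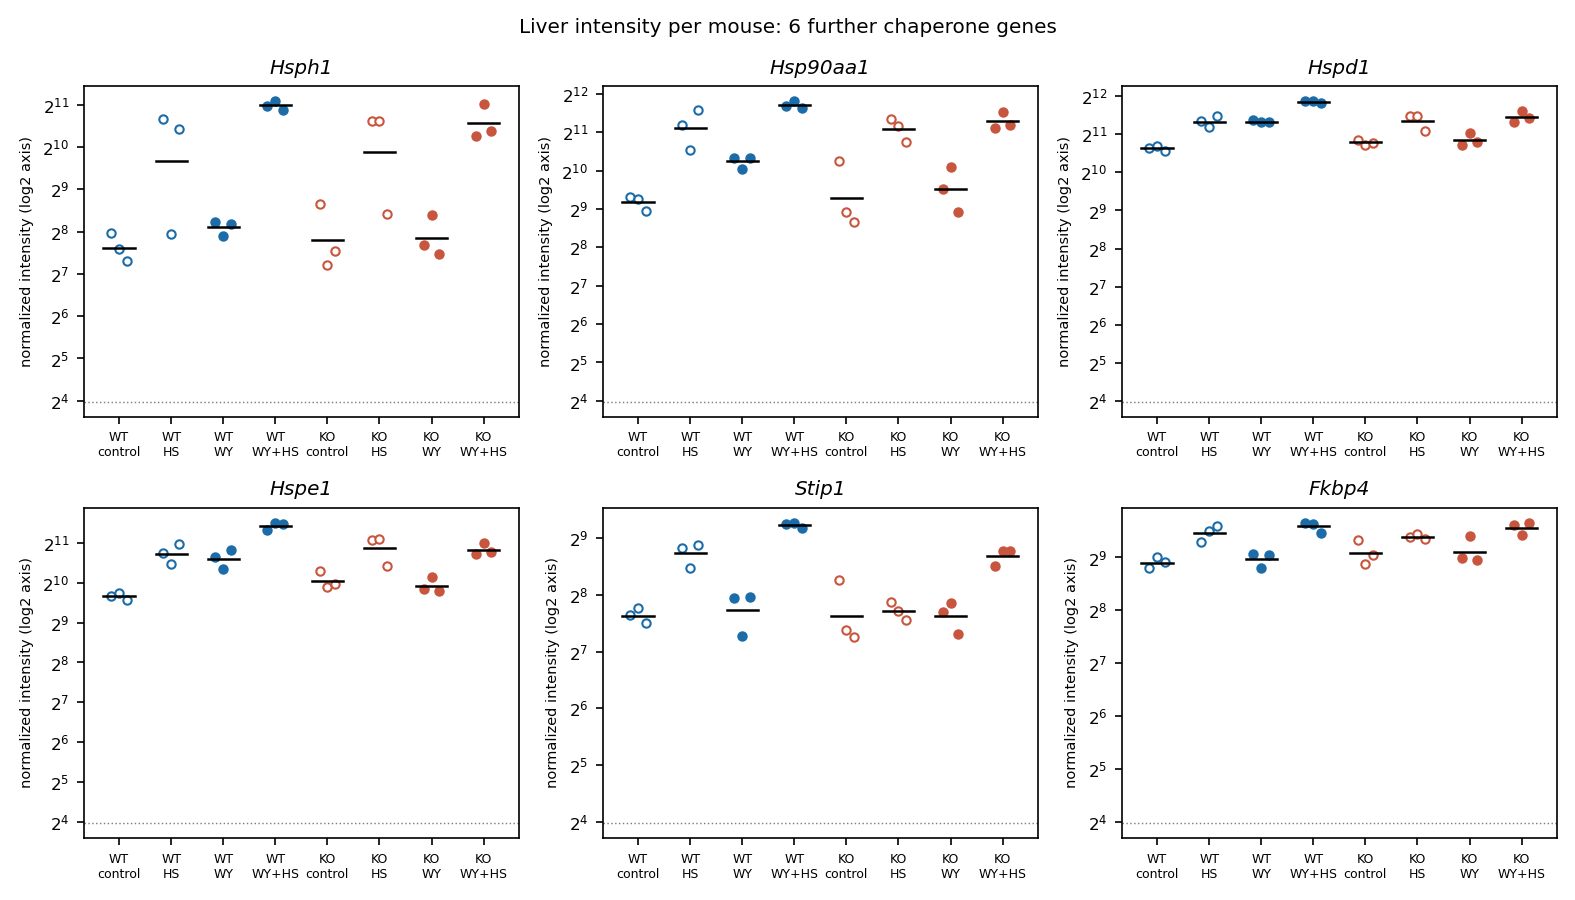
Normalized intensity on a log2 axis per mouse in 8 groups of 3 (wild-type blue, PPARα-null red, WY diet filled, control diet open), with the mean of log2 values as a bar and the floor dotted. In each of these 6 chaperone genes the 3 heated WY-fed mice are above the 3 unheated ones in both strains.

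Of the 24 genes on the array in the list of cytosolic Hsp70, Hsp110 and co-chaperones, 22 were above the floor in 3 or more WY-fed mice. The heat response of 1 of them (Dnajb1) was called higher in wild-type mice and of 0 lower, and the median difference was 0.31, against -0.02 over 5972 genes, of which 5 were called higher and 3 lower. Within wild-type mice 4 of the 22 rose (Hspa1a, Hspa1b, Dnajb1 and Bag3), against 26 of the 5972 genes (0.435%). Of Hsp90 and its co-chaperones 10 of 11 genes were measured and 0 differed between strains, while 3 rose in wild-type mice (Stip1, Fkbp4 and Cacybp). Of mitochondrial chaperones and proteases 9 of 10 were measured, 0 differed, and the median difference was -0.09. The 8 TCP-1 chaperonin genes had a median of 0.13 and 0 calls. At an unadjusted p under 0.05 the 4 lists held 6, 2, 0 and 0 genes with a higher and 0, 0, 2 and 0 with a lower response in wild-type mice, against 197 higher (3.3%) and 247 lower (4.14%) of the 5972.

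**Figure D4:**
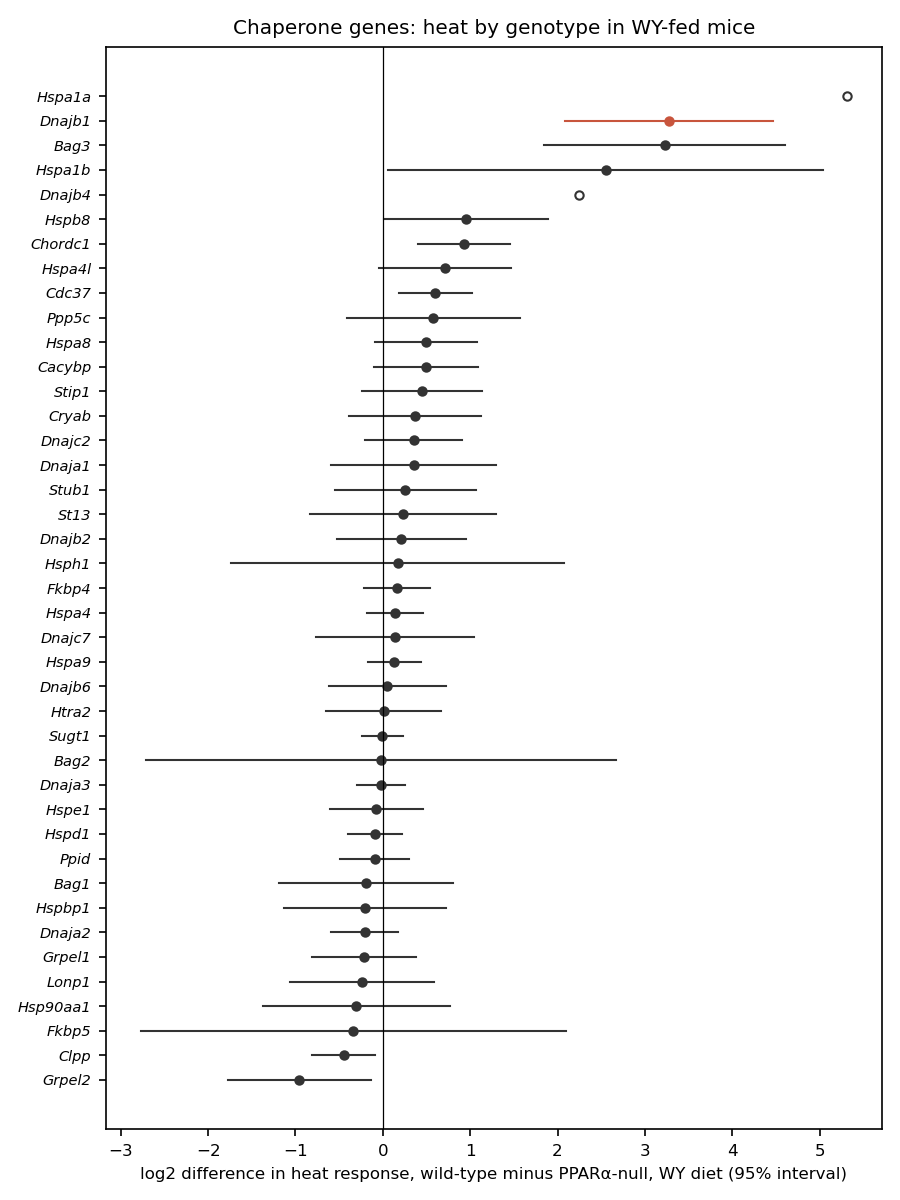
Difference in heat response between strains in WY-fed mice (log2, wild-type minus PPARα-null) with 95% intervals for 41 genes of the Hsp70, Hsp90 and mitochondrial chaperone lists. The 2 genes with a WY-fed group at the floor (Hspa1a and Dnajb4) are open circles with no interval, since their values are neither exact nor bounds, and Dnajb1 (red) is the 1 gene past the adjusted threshold.

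The calls in the other direction were mostly of dim probe sets. Mdfic, which encodes an inhibitor of MyoD family transcription factors, was the brightest of them. It was 230.0, 200.5 and 221 in wild-type WY mice and 96.2, 134 and 115 after WY+HS, against 48.2, 36.8 and 45.7 and then 64.0, 64.9 and 53 in PPARα-null mice. Heated and unheated mice were separate in both strains and in opposite order, and the difference was -1.41 ± 0.20 (SE, limma adjusted p = 0.00408), held with any 1 mouse left out. Rfxank, a subunit of the factor that drives MHC class II genes, was 81.7, 99.5 and 83.8 in wild-type WY mice and at the floor in wild-type WY+HS mice (fitted difference -2.72, limma adjusted p = 1.28e-06). In PPARα-null mice 1 of 6 values was above the floor, at 25.9. A probe set of Tnfrsf1a, a TNF receptor gene, had the same form (45.5, 67.9 and 52.2, then the floor), but its brighter probe set had a difference of 0.52 ± 1.24, in the other direction, that did not pass (limma adjusted p = 1). Zfp574, Tenm3 and Zcchc7 were likewise called lower, and Prpf31, Reg3a and Reck higher, each under 100 in every WY-fed mouse. Leaving out 1 mouse kept the call of Reg3a in 5 of 12 cases, of Tenm3 in 4 and of Zcchc7 in 2. A second probe set of Zfp574 (0.13) and the brighter probe set of Zcchc7 (-0.06) did not pass (limma adjusted p = 1 for both). Of the 13 called probe sets, 8 had at least 1 WY-fed group at the floor on all 3 arrays. Such a group does not vary and lowers the pooled spread, so their p-values can be too small, and these dim genes were named after their values were seen.

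In PPARα-null mice alone the 3 genes called for HS were Atf6, an endoplasmic reticulum stress sensor, Reck and Col9a1. Atf6 rose by 1.08 (limma adjusted p = 0.0444, lost without PPARα-null WY mice 19 or 21 or WY+HS mice 22 or 24). Reck fell from 22.6, 29.8 and 25.9 to the floor, and Col9a1 also fell. Col9a1 was 238, 215 and 120.3 without HS and 15.7, 58.9 and 15.7 with it, and was at the floor in all 6 wild-type WY-fed mice. Its difference between strains did not pass (fitted as 2.91, limma adjusted p = 0.0974). In wild-type mice alone, Il6ra, the interleukin 6 receptor gene, rose from 15.7, 15.7 and 21.9 to 61.0, 60.4 and 95, below all 6 PPARα-null mice (125 to 202). Its difference between strains was 1.69 ± 0.38 (limma adjusted p = 0.170).

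Of the 35 pathway lists, chaperones included, 33 held no gene with a called difference, the exceptions being cytosolic Hsp70 (Dnajb1) and immediate-early and p53 stress genes (Atf3, 1 of 22 measured). The lowest list median, -1.01, was that of cholesterol synthesis and uptake, with 16 of 17 genes measured. There, 6 of the 16 had a lower response in wild-type mice at an unadjusted p under 0.05, against 4.14% of all measured genes, but 0 passed adjustment. Their median heat response was -0.68 in wild-type and 0.26 in PPARα-null mice. Hmgcs1, an early enzyme of the pathway, was 617, 509 and 573 in wild-type WY mice and 340.1, 442 and 269.8 after WY+HS. In PPARα-null mice it was 51.6, 97.3 and 81.6 and then 92.4, 112 and 85.7, and the difference of -1.09 ± 0.48 did not pass (limma adjusted p = 0.963). Lists of interferon, MHC and antigen presentation genes (21 measured) and of complement and coagulation genes (29 measured) each held 5 genes with a lower and 0 with a higher response at the unadjusted threshold, and had medians of -0.24 and -0.13. The highest list median was 0.63, over 3 metallothionein genes. Their example Mt1, a metal-binding stress protein gene, had a difference of 0.63 (95% interval -0.59 to 1.85).

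**Figure D5:**
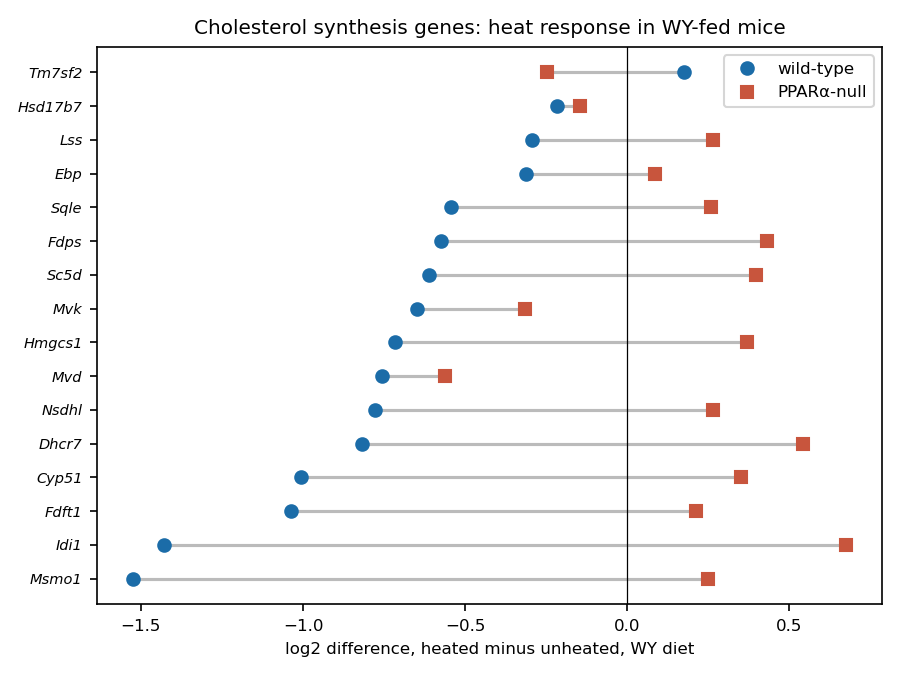
Log2 change with HS in WY-fed wild-type (circles) and PPARα-null mice (squares) for the 16 measured genes of cholesterol synthesis, ordered by the wild-type value. Wild-type values lie left of PPARα-null values for all genes but Tm7sf2, and no gene passed the adjusted test.

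The same difference between strains was also taken in mice on control diet, which are other animals, where 201 probe sets passed (1.62%). Whether it changed with diet was tested directly, and 39 probe sets passed (0.314%), 24 of them with at least 1 WY-fed group at the floor. The brightest Atf3 probe set was among the 39. On control diet it was 35.9, 24.7 and 18.2 without HS and 23.6, 43.1 and 30.9 with it in wild-type mice. In PPARα-null mice it was 38.2, 30.4 and 34.9 without HS and 80.9, 93.0 and 58.7 with it. The difference between strains was -0.82 there and did not pass (95% interval -1.90 to 0.25, limma adjusted p = 0.629), against 3.71 on WY. The change with diet was 4.53 ± 0.72 (limma adjusted p = 0.00709), and it passed without any 1 heated control-diet mouse (4.33 to 4.76). For Hspa1a (fitted as 6.79, limma adjusted p = 0.0658), the second Bag3 probe set (3.26, limma adjusted p = 0.0658) and Dnajb1 (3.35, limma adjusted p = 0.0958) it did not pass. With wild-type HS mouse 4, 5 or 6 or PPARα-null HS mouse 16 or 17 left out, none of the 3 passed (limma adjusted p = 0.0825 to 0.164). All 3 passed only without PPARα-null HS mouse 18, whose Hsph1 value was the 342 above (limma adjusted p = 0.0079, 0.0144 and 0.0476). The brightest Bag3 probe set did not pass with it (2.77, limma adjusted p = 0.281) or without it (2.66, limma adjusted p = 0.241). The library labelled wild-type HS mouse 5, with the Hsph1 value of 244, also had Cyp4a14 at 1837, against 229 and 273 in the other two. Psenen, which encodes a subunit of γ-secretase, had a change with diet of -1.15 (limma adjusted p = 0.0426).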

How the data were processed

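Liver RNA of 24 mice was hybridised to 24 arrays, 1 mouse each, in 8 groups of 3. Per the methods, the authors scanned the arrays with GeneChip Operating Software and analysed them in Rosetta Resolver, but the sources used here name neither the probe set summary nor any scaling. Intensities were deposited on a linear scale, and 24.1% of them were at or below 0. The 66 AFFX probe sets held no value, and 12422 were tested. Intensities were quantile normalized, floored at 15.743 (the size of the 10th percentile, which is negative) and taken to log2, which put 42.9% of values at the floor. The size of a change in a dim gene is therefore not exact, and a difference between strains can come out too small or too large.

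Group means were fitted with limma 3.58.1 in R 4.3.3 over all 24 arrays (16 residual and 0.39 prior degrees of freedom), with Benjamini-Hochberg adjustment over all probe sets at 0.05. The number of arrays limits the precision. The code was tested on simulated data, with differences seeded in probe sets of intensity over 100. By size, 70% to 97.5% of the seeded differences between strains were recovered. Of 12222 unchanged probe sets 28 were called there. That count came beside many seeded differences, so it gives no rate for the 13 calls in the real data. False calls among the 13 remain possible. Each gene is represented by its brightest probe set with exactly 1 symbol (10833 probe sets, 8251 genes; 396 had several and 1193 none, from the platform annotation). A gene counted as measured when above the floor in 3 or more of the 12 WY-fed arrays. Named genes were the 12 largest differences in each direction with a WY-fed group mean of 100 or more, the 6 largest heat responses in each direction and strain, leading list members and a list of chaperone, PPARα and stress genes. Members and lists were chosen with earlier results of these data known. Alternatives changed the scaling, floor, filter, test, weights and arrays, and left out each mouse. Promoters came from RefSeq (GRCm38.p6) and were read with Python 3.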

Additional observations from a re-analysis of the deposited data

Results flagged for a closer look

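The heat response of WY-fed mice differed between wild-type and PPARα-null mice by the interaction test for these probe sets, as log2 wild-type minus PPARα-null. It was 3.71 and 3.25 for the 2 detected Atf3 probe sets, 3.28 for Dnajb1, 2.75 for the second Bag3 probe set, 1.93 for Prpf31, 1.66 for Reg3a and 0.72 for Reck. It was -2.72 for Rfxank, -1.79 for Tnfrsf1a, -1.41 for Mdfic, -1.03 for Zfp574, -0.63 for Tenm3 and -0.50 for Zcchc7.

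The difference between strains itself differed between WY and control diet, as WY minus control diet, by 4.53 and 3.25 for the Atf3 probe sets, 1.82 for Prpf31, 0.68 for Reck, -2.63 for Rfxank, -1.82 for Tnfrsf1a, -1.03 for Zfp574 and -1.15 for Psenen. All but the brightest Atf3 probe set and Psenen had a WY-fed group at the floor, so their p-values can be too small. On control diet these dim probe sets were at or near the floor (at most 26.9). Their difference between strains was -0.09 to 0.11 there, so the change with diet mostly repeats the value in WY-fed mice. Groups of 3 were not tested for outlying mice.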

How the results depend on the processing

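The difference in heat response between strains was called for 13 probe sets in WY-fed mice. It was 25 with no scaling (16.0% higher in wild-type mice, against 53.8%), 20 with the floor at the 5th percentile, 31 with array weights, 6 on an asinh scale with no floor, 8 at an adjusted p under 0.01, 146 by the test of the methods (a one-way F test and a Scheffe post hoc test) and 5 among probe sets with no WY-fed group at the floor, a filter chosen after seeing the data, of which all 5 were among the 13. Leaving out 1 mouse gave 8 (without PPARα-null WY mouse 21 or WY+HS mouse 22) to 27 (without wild-type WY+HS mouse 10).

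For HS in wild-type WY-fed mice (53) the counts were 34 with a common median, 1431 with no scaling (1.4% higher, against 64.2%), 28 by asinh, 166 with array weights, 11 in the arrays compared alone, 24 with no group at the floor, 23 at 0.01, 7 by the test of the methods, and 41 to 89 without 1 mouse. For HS in PPARα-null WY-fed mice (3) they were 1 with no scaling, by asinh and at 0.01, 12 over the 12 WY-fed arrays, 8 with the floor at the 5th and at the 20th percentile, 35 with weights, 9 in the arrays compared alone, 11 with the filter on low values, 8 by the test of the methods, and 2 to 12 without 1 mouse. On control diet (201) they were 103 with a common median, 27 with no scaling, 69 by asinh, 507 with weights, 73 in the arrays compared alone, 53 at 0.01, 371 by the test of the methods, and 104 to 536 without 1 mouse. For the change with diet (39) they were 21 with the floor at the 20th percentile, 5 by asinh, 135 with weights, 12 with the filter, 6 with no group at the floor, 18 at 0.01, 71 by the test of the methods, and 34 to 224 without 1 mouse (224 without PPARα-null HS mouse 18). The cause was not tested.

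Of the named differences, the 2 Atf3 probe sets kept their sign in all settings (3.41 to 4.22 and 2.14 to 5.04) and were called in 24 of 26 and 25 of 25, Mdfic in 23 of 26, Dnajb1 in 15 of 26 and the second Bag3 probe set in 12 of 26. No called difference changed sign, but those of dim probe sets moved with the floor and scale. With the floor at the 5th percentile Reck and Tenm3 came to 0 and Zfp574 to -0.09, Rfxank ranged from -4.54 to -1.38 and Tnfrsf1a from -5.75 to -0.68. Of 25 settings Rfxank, Tnfrsf1a and Prpf31 were called in 23, Zfp574 in 21, Reck in 20, Tenm3 in 10 and Zcchc7 in 5, and Reg3a in 12 of 26. The call of Atf6 in PPARα-null mice was also lost with trend and robust moderation (limma adjusted p = 0.0703) and by asinh (limma adjusted p = 0.0688). No scaling (limma adjusted p = 0.714), the 12 WY-fed arrays (0.13), the arrays compared alone (0.347) and the test of the methods lost it too. With the floor at the 5th percentile the rise was 0.35 (limma adjusted p = 0.789). The call held with a common median, the floor at the 20th percentile, array weights and both filters. With no scaling the median over all probe sets was -0.163 for the difference between strains and -0.369 for HS in wild-type mice, so the splits of higher and lower calls there are relative to those shifts. With the mean of a gene's probe sets in place of the brightest, the list medians were 0.31 for cytosolic Hsp70 and -0.88 for cholesterol synthesis. No paired analysis was possible because the mouse numbers run from 1 to 24 and no number is shared between groups.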
